A study of Mus musculus with 61 samples.

Results

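Jarid2, Tet2, Trim28 and Dnmt3l, 4 regulators of chromatin and DNA methylation in embryonic stem (ES) cells, were followed in mouse embryonic fibroblasts at day 3 of reprogramming to pluripotency. The genes were taken by name from a table of enhancers and promoters of mouse ES cells, each with 1 Sono-seq value for CAF-1 knockdown and 1 for the control. They held 27 of its 14265 enhancers and 4 of its 5513 promoters, or 31 of 19778 regions. All Sox2 binding positions within 100 kb of their start sites were added, which were 24 of the 52888 positions in 3 lists. Sono-seq reads out fragments freed when fixed chromatin is sonicated, in which open chromatin is over-represented.

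All cells came from E13.5 embryos of strain Black6-129X1/SvJ with the genotype Col1a1::tetOP-OKSM ; R26-M2rtTA. Doxycycline switched on Oct4, Klf4, Sox2 and Myc in knockdown and control cells alike, in serum/LIF medium with ascorbate. Knockdown was by a hairpin to CAF-1, which is the chaperone that places histones on newly replicated DNA. In the Sox2 experiment these were Chaf1a.166 and Chaf1a.2122, both against its large subunit. The control hairpin was against Renilla luciferase, a gene that mouse cells lack. Of 61 samples, 12 were taken as the source of the values used here. They were 3 Sono-seq libraries each for CAF-1 knockdown and Renilla, and 1 Sox2 immunoprecipitate with 1 input for each of the 3 hairpins. The deposited Sono-seq values, 1 per condition, were taken to merge its 3 libraries, which is not stated. Each Sox2 list comes from 1 immunoprecipitate. No replicate error exists for either, so no test between conditions was possible and every difference is a description. Gene expression was not analysed here, so neither the depth of the knockdown nor the level of the 4 mRNAs was checked. In these bulk cultures a lower signal in every cell and a loss of signal from some cells cannot be told apart.

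Jarid2 is an accessory subunit of Polycomb repressive complex 2 (PRC2), which methylates histone H3 at developmental genes. It helps to bring the complex to its targets in ES cells. Tet2 oxidises methylcytosine and so opens a path to DNA demethylation, while Dnmt3l has no catalytic activity of its own and stimulates the de novo DNA methyltransferases. Trim28, also called KAP1, is the corepressor of KRAB zinc finger proteins and recruits histone methyltransferases to endogenous retroviruses, among other loci.

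The promoters of these genes differ in sequence, and they are shown to set their CpG content beside their Sono-seq levels. Each window runs from 250 bases before to 50 bases after a RefSeq start in build GRCm38.p6, written 5′ to 3′ on the gene's strand, with every CpG dinucleotide in capitals. RefSeq gave 2 windows for Jarid2 and 3 for Dnmt3l, of which the first by coordinate is printed. Which window belongs to the mm9 start site of the Sono-seq table was not determined.
Jarid2: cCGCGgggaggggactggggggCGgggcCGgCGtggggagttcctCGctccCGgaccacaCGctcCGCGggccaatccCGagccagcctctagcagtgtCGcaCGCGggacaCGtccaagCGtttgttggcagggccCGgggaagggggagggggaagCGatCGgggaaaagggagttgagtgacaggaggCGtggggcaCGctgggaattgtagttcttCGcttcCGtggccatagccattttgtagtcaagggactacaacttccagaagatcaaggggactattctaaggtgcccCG
Tet2: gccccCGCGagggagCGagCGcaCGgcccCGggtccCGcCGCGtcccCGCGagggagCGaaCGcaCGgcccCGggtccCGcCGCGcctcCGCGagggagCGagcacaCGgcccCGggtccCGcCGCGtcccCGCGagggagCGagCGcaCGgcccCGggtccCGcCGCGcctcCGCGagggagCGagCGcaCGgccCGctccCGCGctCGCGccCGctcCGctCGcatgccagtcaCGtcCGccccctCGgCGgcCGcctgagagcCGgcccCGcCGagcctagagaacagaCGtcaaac
Trim28: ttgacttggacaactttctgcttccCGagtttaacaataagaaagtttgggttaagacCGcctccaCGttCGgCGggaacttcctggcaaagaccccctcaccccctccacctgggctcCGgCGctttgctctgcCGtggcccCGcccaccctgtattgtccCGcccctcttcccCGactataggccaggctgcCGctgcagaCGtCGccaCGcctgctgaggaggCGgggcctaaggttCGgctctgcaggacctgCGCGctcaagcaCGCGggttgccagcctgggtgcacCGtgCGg
Dnmt3l: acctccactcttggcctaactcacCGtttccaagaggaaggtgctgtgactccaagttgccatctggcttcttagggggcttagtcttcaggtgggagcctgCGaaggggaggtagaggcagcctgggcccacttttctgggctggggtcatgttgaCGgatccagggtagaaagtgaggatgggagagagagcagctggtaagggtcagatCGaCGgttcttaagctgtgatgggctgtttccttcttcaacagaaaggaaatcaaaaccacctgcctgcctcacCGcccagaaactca
The Tet2 window (chromosome 3, minus strand) held 57 CpG dinucleotides, more than 99.8% of the 4560 RefSeq windows of genes in the table, whose median was 22. The printed windows of Jarid2 (chromosome 13, plus strand) and Trim28 (chromosome 7, plus strand) lay near that median with 24 and 23. The Dnmt3l window (chromosome 10, plus strand) was CpG-poor with 6, and its other windows held 4 and 3. On both strands, none of the 4 printed windows held CATTGT or ACAAAG, core letters bound by Sox proteins, or the octamer ATGCAAAT bound by Oct4. Of all 4560 windows, 7.04% held CATTGT, 14.0% ACAAAG and 1.69% ATGCAAAT. Among the unprinted windows, the last of Dnmt3l by coordinate had 1 match, to ACAAAG on the reverse strand.

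The Sono-seq level of the promoters did not follow CpG content in order. Trim28, on chromosome 7 at 13609500 (mm9, as are all positions from here on), had the highest values, 0.164 with CAF-1 knockdown and 0.155 with Renilla, in the authors' unit, which is not stated. Its mean level exceeded that of 74.1% of all promoters. The other 3 were in the lower part of the range. Dnmt3l (chromosome 10 at 77512586) had 0.117 and 0.114, at percentile 13.9. Tet2 (chromosome 3 at 133207354), with the most CpG, had 0.110 with CAF-1 knockdown and 0.129 with Renilla, at percentile 18.0. Jarid2 (chromosome 13 at 44826271) was the lowest, with 0.0940 and 0.0998, at percentile 4.86.

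No promoter of the 4 genes differed by 1.2-fold between the conditions, the size used here in place of a test. Among all promoters, 11.3% were at least 1.2-fold higher with CAF-1 knockdown and 13.3% at least 1.2-fold lower, so 0 of 4 says little about these genes. The log2 ratio of CAF-1 knockdown over Renilla was 0.08 at Trim28, 0.04 at Dnmt3l, -0.09 at Jarid2 and -0.23 at Tet2. The Tet2 value was nearest to the 1.2-fold limit and lay at percentile 16.2 of all promoters. The median of all promoters was -0.0093, with an SD of 0.23 over promoters.

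**Figure D1:**
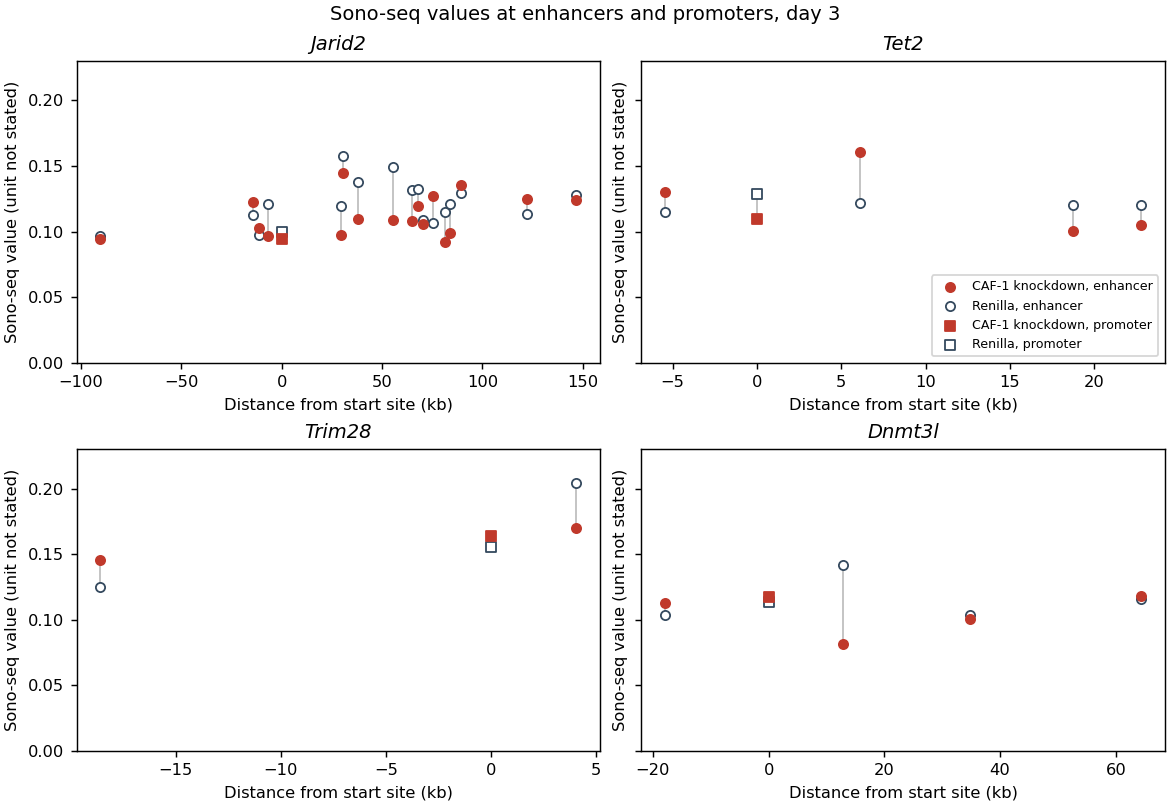
Sono-seq values (y axis, authors' unit, not stated) of each enhancer (circle) and promoter (square) by distance from the start site in kb, positive in the direction of transcription. Filled red marks are CAF-1 knockdown and open dark marks Renilla, 1 merged value each, joined by a grey line. The widest gap is at the Dnmt3l enhancer 12.8 kb downstream, at 0.0812 and 0.141.

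The enhancers of the 4 genes were mostly of low Sono-seq level, and more of them were lower with CAF-1 knockdown than higher. Their values had a median of 0.109 with CAF-1 knockdown and 0.120 with Renilla, against 0.140 and 0.137 over all enhancers. Of the 27, 24 lay below the median level of all enhancers. In log2 ratio, 10 were above 0 and 17 below, with a median of -0.05. Among all 14265 enhancers, 55.3% were above 0 and the median was 0.03. At 1.2-fold, 9 of the 27 were lower with CAF-1 knockdown and 1 was higher, where 10.6% and 15.5% of all enhancers passed the same limits. Of the 9 lower ones, 7 belonged to Jarid2. Without Jarid2 the count was 2 lower (20%) and 1 higher of 10, too few to set against those shares.

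Jarid2 had 17 enhancers, all assigned to it alone, where the median gene of the table had 3. With CAF-1 knockdown their values ran from 0.0924 to 0.145 with a median of 0.109, and with Renilla from 0.0964 to 0.158 with a median of 0.121. The ranges overlapped almost fully. The log2 ratio had a median of -0.12 and averaged -0.12 ± 0.21 (SD over 17 enhancers), with 12 enhancers below 0 and 5 above. Of the 466 genes with at least 10 enhancers, 12 had a lower median. The medians of those genes ran from -0.07 at percentile 10 to 0.12 at percentile 90, around a middle value of 0.03. The 466 genes were not matched to Jarid2 in Sono-seq level, and 16 of its 17 enhancers lay below the median level of all enhancers.

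A stretch from 29.3 to 89.2 kb downstream of the start site held 11 of the 17 Jarid2 enhancers. It held 9 of the 12 with a negative ratio and 6 of the 7 at least 1.2-fold lower. The median ratio in it was -0.29. These borders were chosen after the values were seen, so the counts do not show that lower enhancers cluster there. The lowest was 55.3 kb downstream at 44881600, with 0.109 with CAF-1 knockdown and 0.149 with Renilla, a log2 ratio of -0.45 at percentile 2.05 of all enhancers. Its neighbours at 38.1 kb (0.109 and 0.138, ratio -0.33) and 64.8 kb (0.108 and 0.132, ratio -0.29) were low as well. The stretch was not uniform. The enhancer 75.6 kb downstream had 0.127 with CAF-1 knockdown and 0.107 with Renilla, a ratio of 0.25 and the highest of the gene. The other 6 enhancers, upstream or more than 100 kb downstream, divided evenly with 3 above 0 and 3 below. The one 6.9 kb upstream was the exception past 1.2-fold, with 0.0969 and 0.121 and a ratio of -0.32.

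**Figure D2:**
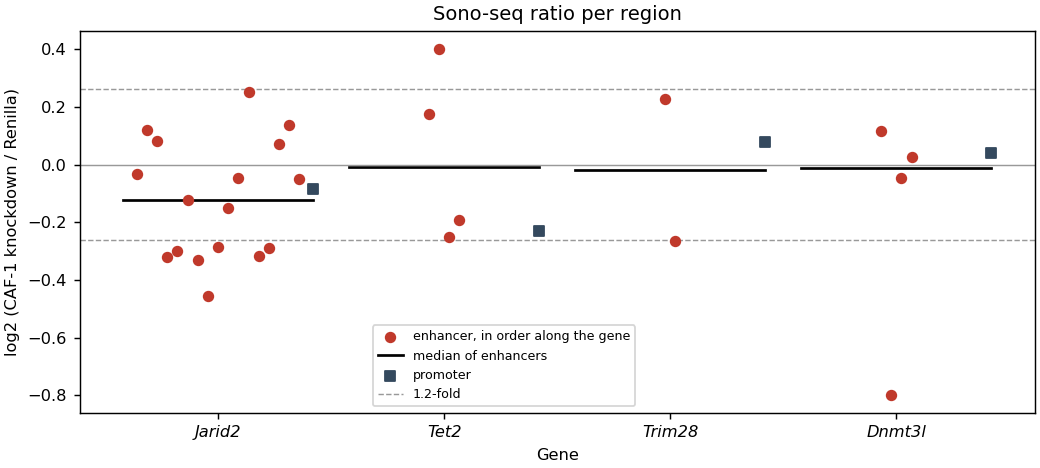
Log2 ratio of the Sono-seq value in CAF-1 knockdown over Renilla (y axis) for each enhancer (red circles, left to right along the gene), the promoter (dark square) and the median of enhancers (black line), for 4 genes. Dashed lines mark 1.2-fold. The Jarid2 median is -0.12, and the medians of the other genes lie between -0.02 and -0.01.

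Tet2 had 4 enhancers, which formed a pair near the start site and a pair farther downstream, with opposite signs. The one 6.1 kb downstream at 133201250 had 0.160 with CAF-1 knockdown and 0.121 with Renilla. Its log2 ratio of 0.40, or 1.32-fold, was the highest of the 27 enhancers and lay at percentile 94.9 of all. The one 5.4 kb upstream had 0.130 and 0.115 (ratio 0.18). Farther downstream, those at 18.8 kb (0.101 and 0.120) and 22.8 kb (0.105 and 0.120) had ratios of -0.25 and -0.19, both short of 1.2-fold. The Renilla values of all 4 lay between 0.115 and 0.121, so the enhancers differed from each other mainly in the knockdown column.

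The enhancers of Trim28 and Dnmt3l are largely assigned to neighbouring genes too, so their values are not those of 1 gene. The Trim28 enhancer 18.6 kb upstream, shared with Chmp2a, had 0.146 with CAF-1 knockdown and 0.125 with Renilla (log2 ratio 0.23). The one 4050 bp downstream at 13613550 is shared with Chmp2a, Ube2m and Zbtb45. It had the highest level of the 27, at percentile 96.4 of all enhancers, with 0.170 with CAF-1 knockdown and 0.204 with Renilla. Its ratio of -0.26 was just past the limit, at 1.20-fold lower. Promoters of the genes that share it differed from Trim28 (0.08). Chmp2a, which encodes an ESCRT-III subunit, had a ratio of 0.37, Zbtb45 one of 0.28, and the 2 start sites of Ube2m, which encodes the Nedd8-conjugating enzyme, had -0.36 and -0.44.

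Dnmt3l held the largest single difference. Its enhancer 12.8 kb downstream at 77525400 had 0.0812 with CAF-1 knockdown and 0.141 with Renilla, a log2 ratio of -0.80, or 1.74-fold lower. Only 8 of the 14265 enhancers had a lower ratio. The Renilla value lay close to the median of all enhancers, and the knockdown value was the lowest of the 27. This enhancer is also assigned to Aire, the autoimmune regulator, whose start site lies 6261 bp from that of Dnmt3l and whose promoter had 0.165 and 0.163. The other 3 enhancers of Dnmt3l had ratios of 0.12, -0.05 and 0.03, within the usual spread of 0.23 (SD over all enhancers). With 1 value per condition, no error can be given for the enhancer at 12.8 kb.

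**Figure D3:**
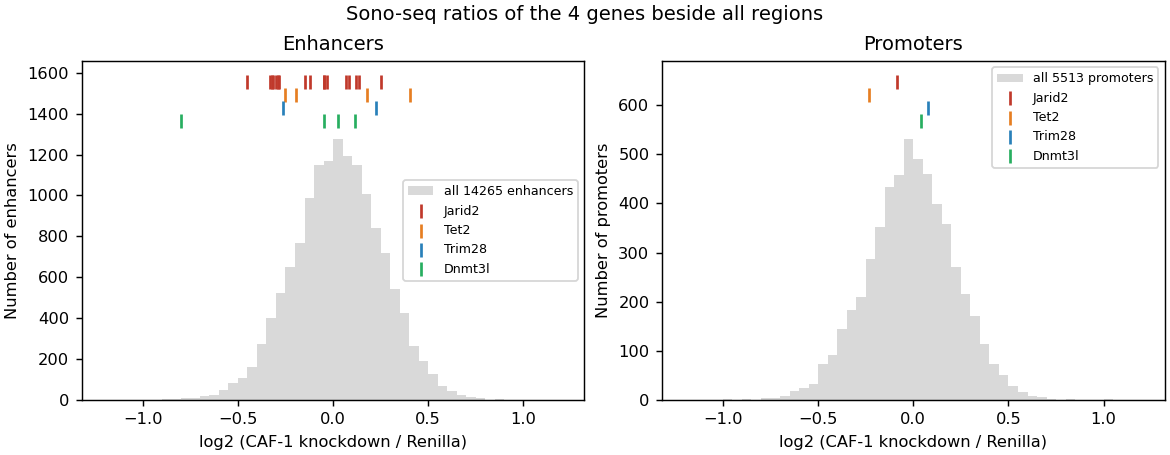
Histograms of the log2 Sono-seq ratio of CAF-1 knockdown over Renilla for all 14265 enhancers (left) and all 5513 promoters (right), with the regions of the 4 genes as coloured ticks above. Most ticks lie within the bulk, and the Dnmt3l enhancer at -0.80 lies in the far left tail.

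Sox2 was bound near Jarid2, Tet2 and Trim28 in control and knockdown cells, and no list held a position near Dnmt3l. Each list held 8 positions within 100 kb of the 4 start sites (95% Poisson interval 3.45 to 15.8, counting error only). When positions up to 200 bp apart were joined, 10 sites resulted. Of these, 6 were in all 3 lists, 2 in Chaf1a.2122 and Renilla, and 2 in Chaf1a.166 alone. Of the 10115 sites within 100 kb of any start site in the table, 41.8% were in all 3 lists, 9.22% in Chaf1a.2122 and Renilla, and 9.01% in Chaf1a.166 alone. A position missing from a list is below the threshold of that list, which does not show that Sox2 was absent. A position within 100 kb was common, at 84.2% of all start sites for Chaf1a.166, 88% for Chaf1a.2122 and 85.1% for Renilla, so 3 of 4 genes is near the background.

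Jarid2 had the most Sox2 positions, with 5 for Chaf1a.166 (1.62 to 11.7), 4 for Chaf1a.2122 (1.09 to 10.2) and 4 for Renilla (1.09 to 10.2). As many or more were found at 13.2% (Chaf1a.166), 30.9% (Chaf1a.2122) and 25.0% (Renilla) of all start sites, so these counts were not unusual. The site 21.0 kb downstream, from 44847244 to 44847287, had the best score of the gene in Chaf1a.166 and Renilla. It ranked 1091 of 15888 by score in Chaf1a.166, 5894 of 19319 in Chaf1a.2122 and 2356 of 17681 in Renilla. The site 25.3 kb upstream was also in all 3 lists, within 73 bp, at ranks 5076, 4258 and 4375, and had the best score of the gene in Chaf1a.2122. The last shared site, 67.5 kb downstream, lay within the downstream stretch described above. Its positions were 554, 554 and 546 bp from the enhancer at 44894300, whose Sono-seq values were 0.119 with CAF-1 knockdown and 0.132 with Renilla. The log2 ratio of that enhancer was -0.15, short of 1.2-fold, at percentile 21.7 of all enhancers. In Chaf1a.166 the score of this Sox2 site was almost the lowest of the list, at rank 15847 of 15888, against 7661 of 19319 in Chaf1a.2122 and 8310 of 17681 in Renilla. Its enrichment over input was 6.16 (lower bound 1.95) in Chaf1a.166, 7.99 (2.68) in Chaf1a.2122 and 2.67 (0.935) in Renilla. Only the Renilla bound was below 1, and these values are comparable only within a list. A position 12.3 kb downstream had a low score in both lists that held it, at rank 14725 in Chaf1a.2122 and 16043 in Renilla. Chaf1a.166 alone held positions 8595 and 2680 bp upstream, at ranks 9926 and 11725 by score. By the authors' enrichment over input the second, at 28.5, was the highest of the 5 Jarid2 positions in that list, and the first had 7.99.

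Tet2 had 1 Sox2 site, the same in every list. It lay 19.6 kb downstream, from 133187691 to 133187775, and ranked 2747 of 15888 in Chaf1a.166, 5067 of 19319 in Chaf1a.2122 and 3466 of 17681 in Renilla. The authors' enrichment over input was 24.7, 24.9 and 12.1, values that are comparable only within a list. The positions fell 855, 825 and 909 bp from the enhancer at 18.8 kb, between it and the enhancer at 22.8 kb. These are the 2 Tet2 enhancers with negative Sono-seq ratios, and no test links the measures.

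Trim28 carried 2 Sox2 sites in all 3 lists. The one with the higher score in each list, from 13599704 to 13599741, lay 9796 bp (Chaf1a.166), 9777 bp (Chaf1a.2122) and 9759 bp (Renilla) upstream. By score it ranked 1086 of 15888, 2393 of 19319 and 990 of 17681. Its enrichment over input in Chaf1a.2122 was 4.00 with a lower bound of 1.70, against 11.3 and 3.10 for the site nearer the start, so there the measures ordered the sites differently. It is nearer to the start site of Zbtb45, which is 4555 to 4592 bp away. The other site was the one closest to a start site of the 4 genes, 866, 856 and 839 bp upstream. Its ranks were 10667 in Chaf1a.166, 6635 in Chaf1a.2122 and 5787 in Renilla. Chaf1a.2122 and Renilla shared another site 74.5 kb upstream, closer to 2310014L17Rik. Positions within 100 kb of Trim28 thus numbered 2 in Chaf1a.166, 3 in Chaf1a.2122 and 3 in Renilla. As many or more were found at 61.5%, 48.4% and 42.9% of all start sites, so these counts were not unusual.

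For Dnmt3l the nearest Sox2 position was 272543 bp downstream in Chaf1a.166, 272565 bp in Chaf1a.2122 and 272555 bp in Renilla. A count of 0 within 100 kb allows up to 3.69 positions by the Poisson interval. The enhancer with the ratio of -0.80 thus had no listed Sox2 position nearby in any cells. Within 10 kb of the start site, Chaf1a.166 had a position at Jarid2 and Trim28, and Chaf1a.2122 and Renilla at Trim28. Of all start sites, 28.4% had one at this distance for Chaf1a.166, 33.2% for Chaf1a.2122 and 29.1% for Renilla. Of the 31 regions, 0 had a Sox2 position of any list within 500 bp, where 7.08% of all 19778 regions had one, so 0 of 31 says little about these genes.

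**Figure D4:**
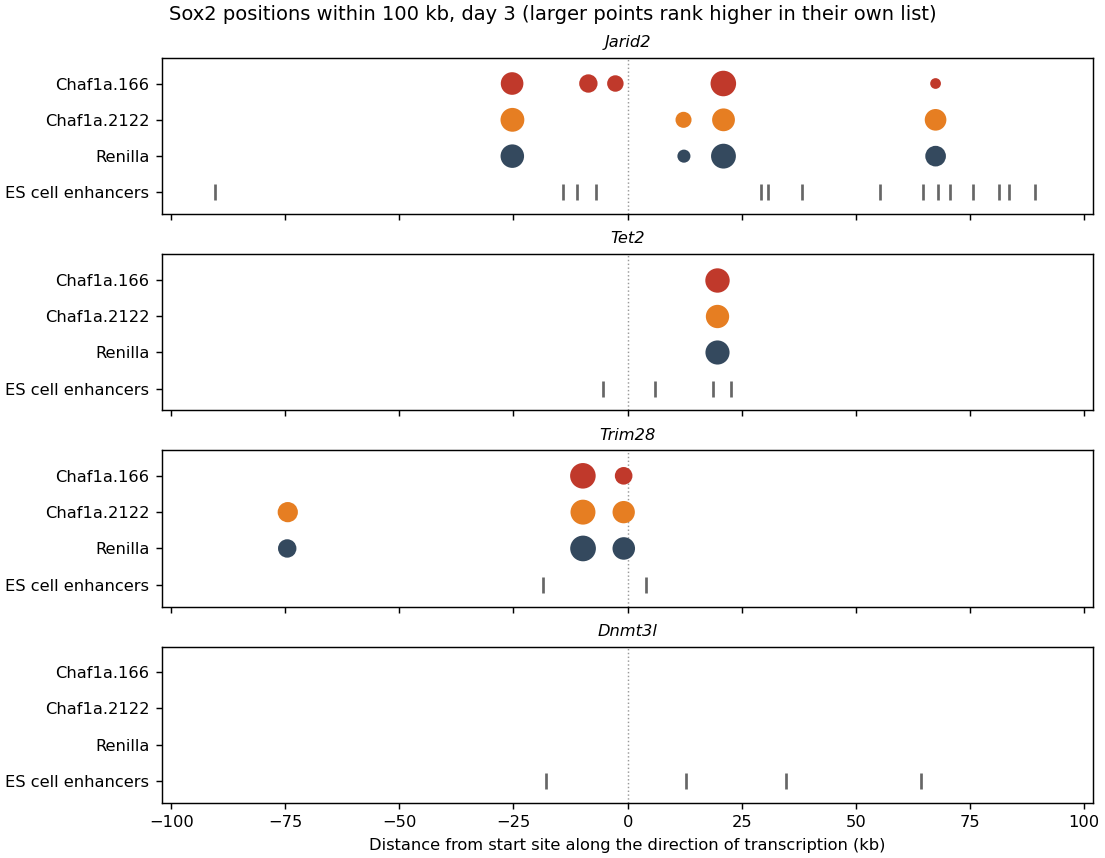
Sox2 positions (circles) of the Chaf1a.166, Chaf1a.2122 and Renilla lists by distance in kb from the start site of each gene, positive downstream, with ES cell enhancers as ticks. Larger circles rank higher by score in their own list, and 6 sites line up in all 3 rows while the Dnmt3l panel holds none.

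Other genes of the same pathways showed both features in mixed form. Of 39 listed genes, 23 were in the table, with 32 promoters, of which 2 were at least 1.2-fold higher with CAF-1 knockdown and 1 at least 1.2-fold lower (11.3% and 13.3% of all promoters). The shares of all enhancers to set beside the enhancer counts are 15.5% higher and 10.6% lower. Among 6 PRC2 genes the promoter of Suz12, a core subunit, had 0.123 with CAF-1 knockdown and 0.0968 with Renilla (log2 ratio 0.34). The median of their 8 promoters was 0.0052, and that of their 24 enhancers was -0.07, with 1 past 1.2-fold higher and 5 lower. Of these 24 enhancers, 15 belonged to Aebp2 alone, with a median of -0.11. Mtf2, which like Jarid2 helps PRC2 find its targets, had Sox2 positions 145 bp (Chaf1a.166), 169 bp (Chaf1a.2122) and 161 bp (Renilla) from its start. Rbbp4, a histone-binding subunit shared by PRC2 and CAF-1, had 3 positions within 10 kb in each list, the nearest 25, 32 and 125 bp away. Aebp2, another accessory subunit, had 1, 3 and 3. Sox2 thus lay within 10 kb of a start site of 3 of 6 PRC2 genes in each list, against 28.5% (Chaf1a.166), 33.4% (Chaf1a.2122) and 29.3% (Renilla) of all genes.

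None of the 7 promoters of 6 DNA methylation genes passed 1.2-fold, and their median was 0.05. Their 42 enhancers had a median of 0.05, with 4 higher and 5 lower by 1.2-fold. Of these 42 enhancers, 18 belonged to Gadd45a alone, with a median of 0.05. Gadd45a, a DNA damage-inducible gene linked to demethylation, had a Sox2 position 13 bp (Chaf1a.166), 13 bp (Chaf1a.2122) and 95 bp (Renilla) from its start. Uhrf1, which guides the maintenance methyltransferase, had one within 10 kb in Chaf1a.166 alone. Dnmt1, that methyltransferase, and Cxxc5, a CpG-binding protein, had one in Chaf1a.2122 alone, 9304 and 1525 bp away.

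Among 11 genes of Trim28-linked heterochromatin, 1 promoter was past the limit in each direction. Morc3, a nuclear ATPase, had 0.169 with CAF-1 knockdown and 0.132 with Renilla (ratio 0.36). Of the 2 start sites of Cbx5, which encodes heterochromatin protein HP1 alpha, one had 0.102 and 0.144 (ratio -0.50) and the other 0.109 and 0.125 (ratio -0.19). Their 17 promoters had a median of -0.08. Their 35 enhancers had a median of 0.18, with 8 higher and 3 lower by 1.2-fold, against 0.03 for all enhancers. Of these 35 enhancers, 8 belonged to Morc3, with a median of 0.18, and 6 to Zfp57, with a median of -0.08. Cbx1, Cbx3 and Ehmt2 had a Sox2 position within 10 kb in all 3 lists. Cbx5 had one in Chaf1a.2122 and Renilla, and Zfp57 and Hdac1 in Chaf1a.2122 alone. In all, 8 of the 23 genes were near Sox2 in Chaf1a.166, 12 in Chaf1a.2122 and 8 in Renilla, where 28.5%, 33.4% and 29.3% of all genes were. Chaf1a.2122 is the longest list.

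**Figure D5:**
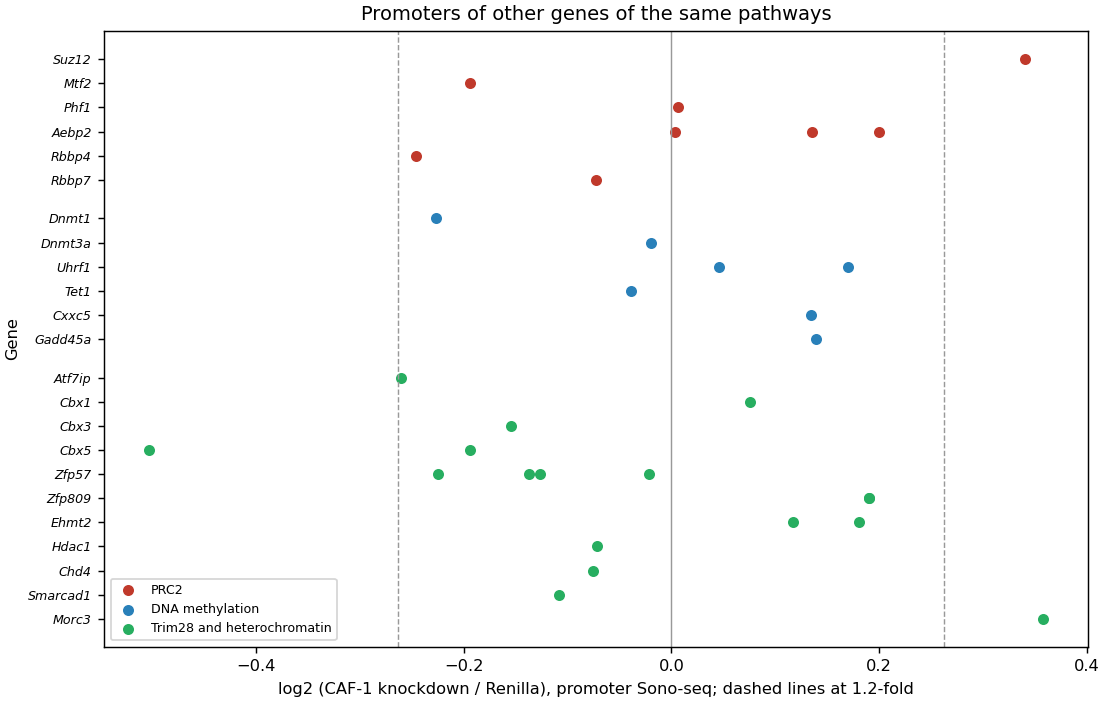
Log2 Sono-seq ratio of CAF-1 knockdown over Renilla (x axis) at each promoter of 23 other genes of the PRC2 (red), DNA methylation (blue) and Trim28-linked heterochromatin (green) lists. Dashed lines mark 1.2-fold, and Suz12 and Morc3 lie beyond the right line and 1 start site of Cbx5 beyond the left.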

How the data were processed

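Sox2 ChIP-seq and Sono-seq of day 3 were used. The submitters' processing notes name the build mm9, BWA 0.7.8 and Bowtie, without saying what each tool did. The caller of Sox2 positions was not stated. Per the file headers, the deposited lists give for each position a score, an E-value (treated as a score), a q-value and the enrichment, a ratio to input, with a lower bound. All are values by the authors for 1 library and were used only within a list. The deposited Sono-seq values were treated as a score, since their unit, their scaling and the merging of 3 libraries are not stated. Read depth is unknown.

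With Python 3.11.15, pandas 2.3.3 and scipy 1.17.1, the log2 ratio of CAF-1 over Renilla was computed per region without a pseudocount. Percentiles are over all distinct enhancers or promoters. The tests planned for single libraries could not be run on merged values. Directions come from the strand in RefSeq. Sites were positions joined within 200 bp. The joining was tested on simulated lists whose sites lay far apart, so wrong joining of close sites was not tested. Genes named are the 4 genes, pathway genes with a promoter past 1.2-fold or a Sox2 position within 10 kb, and the 3 genes nearest to each of the 4 in Sono-seq pattern. Neighbours that share an enhancer or lie nearest to a Sox2 site were named after their values were seen. Members and lists were chosen with earlier results of these data known.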

Additional observations from a re-analysis of the deposited data

How the results depend on the processing

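Alternatives were a window of 10, 50 or 200 kb, an enrichment lower bound of at least 2, equal list length, other joining distances and distances to regions, equal medians of the Sono-seq columns, a pseudocount, subsets of enhancers and folds of 1.1 and 1.5. Leaving out Jarid2 was chosen after seeing the data. Counts were taken as changed beyond 1.5 times, and log2 ratios beyond 0.1. No paired analysis was possible because the table holds 1 value per condition and each Sox2 list comes from 1 library, and no library could be left out either. Read depth is unknown, which limits statements on missing positions.

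Positions near the 4 genes numbered 4 (Chaf1a.166), 2 (Chaf1a.2122) and 2 (Renilla) within 10 kb, and 14, 15 and 14 within 200 kb, which follows from the window. With the enrichment bound, sites in all 3 lists numbered 4 against 6, the Trim28 site near 9.8 kb upstream and the Jarid2 site 67.5 kb downstream no longer being in all of them. Sites in knockdown lists and not in Renilla numbered 4 against 2, as the bound removed 2 of 4 Renilla positions near Jarid2. Within 1000 bp, 3 of the 31 regions had a Sox2 position against 0 within 500 bp, and 10.5% of all regions had one within 1000 bp. Enhancers lower with CAF-1 knockdown numbered 12 at 1.1-fold, 1 at 1.5-fold and, at 1.2-fold, 2 without Jarid2. Among all enhancers, 23.2% were lower at 1.1-fold, 0.54% at 1.5-fold and 10.6% at 1.2-fold. Enhancers higher numbered 4 at 1.1-fold and 0 at 1.5-fold, where 31.8% and 0.764% of all enhancers were higher. Promoters lower numbered 1 at 1.1-fold, where 27.8% of all promoters were lower. The median ratio of the enhancers was below 0 under each setting run, which says little. A pseudocount cannot change the sign of a ratio, and equal medians lowered every ratio. The median was -0.01 over the 10 enhancers without Jarid2, and -0.12 above the median level. Only 3 of the 27 enhancers remain above that level, with ratios of 0.40 (Tet2), -0.12 (Jarid2) and -0.26 (Trim28). With equal medians, which shifts every log2 ratio by 0.02, the Jarid2 median was -0.14.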

Other observations

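Genes with the most similar Sono-seq pattern were sought among 5155 genes, by Euclidean distance over 4 standardised values, namely the log2 promoter value and the median log2 enhancer value in CAF-1 knockdown and in Renilla. Distances are in SD units, and as 4 values of 2 merged conditions went in, the likeness is mainly one of level. For Jarid2 the nearest were Osgepl1 (distance 0.36), Rims2 (0.38) and Hist1h1d (0.42). The median distance over all genes was 2.77, but the nearest of 5155 genes lie below it by construction. Hist1h1d, a linker histone gene, had promoter values of 0.0909 with CAF-1 knockdown and 0.0937 with Renilla. For Tet2 they were Rasal2 (0.14), Scarna2 (0.18) and Slc30a6 (0.26). Rasal2, which encodes a Ras GTPase-activating protein, had promoter values of 0.108 with CAF-1 knockdown and 0.130 with Renilla, beside 0.110 and 0.129 at Tet2.

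For Trim28 the nearest genes were Tbc1d2 (0.17), L3mbtl2 (0.19), a Polycomb group protein, and Cbx6-Nptxr (0.20). L3mbtl2 had promoter values of 0.162 with CAF-1 knockdown and 0.151 with Renilla. For Dnmt3l they were Slc4a7 (0.20), LOC100303645 (0.20) and Mir292 (0.20), a microRNA of the ES cell cluster on chromosome 7, which had promoter values of 0.119 with CAF-1 knockdown and 0.117 with Renilla. The last 2 share their enhancer values, so they count as 1 locus.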
